A study of Homo sapiens with 54 samples.

Results

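The proteasome genes examined here were the 40 genes whose symbols name subunits of the PSMA, PSMB, PSMC, PSMD and PSME families, out of 18417 genes with an array row of exactly 1 symbol. Where a gene had several rows, the row with the highest mean over the 54 arrays was used. The members were sorted into 16 core genes (PSMA1 to PSMA8, PSMB1 to PSMB7 and PSMB11), 19 regulatory genes (PSMC1, PSMC2, PSMC3, PSMC4 and PSMC6, 12 PSMD genes, PSME3 and PSME4) and 5 immune genes (PSMB8, PSMB9, PSMB10, PSME1 and PSME2). PSMC5, PSMD7 and PSMD13 were not analysed here.

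The proteasome is the cell's main machine for destroying proteins that carry ubiquitin chains. Its core particle is a barrel in which rings of PSMA subunits gate the entrance and rings of PSMB subunits hold the cutting sites, which lie on PSMB5, PSMB6 and PSMB7. The regulatory particle is built of the PSMC ATPases, which unfold substrates, and PSMD subunits, some of which bind or remove ubiquitin. Interferon can replace the cutting subunits with PSMB8, PSMB9 and PSMB10 and cap the barrel with the PSME1 and PSME2 activator, a form that makes peptides for antigen presentation. Core particles carrying PSMA8 are known from testis, and those carrying PSMB11 from thymus.

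The arrays measured RNA of NCI-H460 cells, an established line of human large cell lung carcinoma, kept without serum. A culture received cigarette smoke extract (5 uM nicotine equivalent), nicotine (5 uM) or neither, and after 2 h was given 6 Gy of ionizing radiation, 1 uM cisplatin or neither. All 9 combinations were harvested 2 h and 24 h later, giving 18 groups of 3 arrays. Radiation + smoke extract, radiation + nicotine, radiation, cisplatin + smoke extract, cisplatin + nicotine, cisplatin, smoke extract and nicotine were set against untreated cells of the same time, which had also been kept without serum. All replicates come from this 1 line, and p-values measure the spread between samples that the labels call biological replicates, which may be partly technical. Fewer cells of a kind and less RNA per cell cannot be told apart in these bulk samples.

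The epithelial keratins KRT8, KRT18 and KRT19 lay at the 99.6, 98.8 and 99.3 percentile of mean level, whereas the epithelial markers EPCAM and CDH1 lay at 17.5 and 14.6. The leukocyte markers PTPRC, LYZ, CD3E, ITGAM and CD14 lay at 1.85, 3.78, 16.3, 22.7 and 38.3. The fibroblast markers DCN, COL1A2, LUM, COL3A1 and COL1A1 lay at 1.21, 33.7, 33.9, 53.5 and 60.5. The endothelial markers PECAM1, KDR, VWF and CDH5 lay at 12.3, 17.9, 21.4 and 26.0. Over the arrays the mean of 5 leukocyte markers ranged from 4.72 to 5.11, that of 5 fibroblast markers from 5.91 to 6.32 and that of 4 endothelial markers from 5.10 to 5.72. Among the fibroblast markers, limma called 3 of 5 higher with smoke extract at 24 h, LUM (0.48 ± 0.10, adjusted p = 0.000322), DCN (0.18 ± 0.06, adjusted p = 0.0167) and COL1A1 (0.15 ± 0.06, adjusted p = 0.0377), and 1 of 5 with radiation at 24 h, DCN (0.17 ± 0.06, adjusted p = 0.023). In both comparisons it called 0 of 5 leukocyte and 0 of 4 endothelial markers. Of all genes 11.9% were called higher with smoke extract and 15.9% with radiation. At 24 h compared with 2 h, 2 of 5 fibroblast markers (COL3A1 at 0.23 ± 0.02, adjusted p = 2.45e-11, and DCN at 0.12 ± 0.03, adjusted p = 0.00188) and 2 of 4 endothelial markers (KDR at 0.25 ± 0.04, adjusted p = 2.37e-07, and VWF at 0.11 ± 0.04, adjusted p = 0.00836) were higher. Of 5 leukocyte markers 1 was higher, ITGAM (0.12 ± 0.04, adjusted p = 0.00257), and 1 lower, CD14 (-0.37 ± 0.04, adjusted p = 3.8e-11). Between these times 41.4% of all genes were called higher and 27.8% lower. The part of these markers in the results was not tested. Replicates correlated at 0.979 to 0.996 and no 2 arrays were identical. Values are on a log scale whose base was inferred to be 2, and no detection calls were used.

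The mean of 432 genes of olfactory receptor, taste receptor and keratin-associated families served as a measure of array background. It was higher at 24 h than at 2 h by 0.12. At 24 h it was higher with smoke extract by 0.09, with nicotine by 0.08, with radiation by 0.06 and with cisplatin by 0.06, than in cultures without the agent. Most proteasome genes ran the other way, so counts fitted with this mean as a covariate are given beside the others. Of the 40 members, 37 lay above the median mean level of all genes, while PSMA8 and PSMB11 lay at the 1.65 and 15.0 percentile.

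Proximal promoter sequences are shown for genes whose RNA differed at 24 h: PSMA4 and PSMB3, lower after radiation, PSMB5, lower with smoke extract, and PSME1, higher after radiation. None of them was called with 1 agent only. PSMA4 was also lower with cisplatin and smoke extract, and PSMB3 with cisplatin. PSMB5 was also lower with radiation and nicotine, and PSME1 was lower with nicotine. Each is the 250 bases before the listed start of the gene, 5′ to 3′ on the gene's strand, from RefSeq on GRCh38.p14, in which 35 of the 40 members had an entry. Capitals mark matches on either strand to TGANNNNGC (the core of the antioxidant response element bound by NRF2 and NRF1), CCAAT (bound by NF-Y) and an interferon element, which reads GAAA, any 2 bases and GAAA again. Matches may overlap. PSMA4 lies on the plus strand at chr15:78540155-78540404, PSMB3 on the plus strand at chr17:38752491-38752740, PSMB5 on the minus strand at chr14:23035221-23035470 and PSME1 on the plus strand at chr14:24135944-24136193.
PSMA4: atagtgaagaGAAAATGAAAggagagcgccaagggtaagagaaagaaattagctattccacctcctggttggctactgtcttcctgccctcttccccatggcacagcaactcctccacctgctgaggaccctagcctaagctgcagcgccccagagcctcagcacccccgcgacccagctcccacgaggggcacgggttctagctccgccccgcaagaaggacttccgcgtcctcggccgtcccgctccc
PSMB3: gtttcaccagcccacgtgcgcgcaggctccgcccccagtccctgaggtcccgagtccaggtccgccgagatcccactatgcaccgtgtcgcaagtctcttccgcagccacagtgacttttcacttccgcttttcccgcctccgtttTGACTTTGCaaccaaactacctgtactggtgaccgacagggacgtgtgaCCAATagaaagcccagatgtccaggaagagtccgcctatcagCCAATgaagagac
PSMB5: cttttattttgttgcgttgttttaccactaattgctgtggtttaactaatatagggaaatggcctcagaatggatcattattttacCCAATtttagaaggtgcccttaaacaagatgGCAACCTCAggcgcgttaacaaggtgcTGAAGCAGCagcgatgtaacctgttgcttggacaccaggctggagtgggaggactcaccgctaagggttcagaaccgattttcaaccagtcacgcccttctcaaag
PSME1: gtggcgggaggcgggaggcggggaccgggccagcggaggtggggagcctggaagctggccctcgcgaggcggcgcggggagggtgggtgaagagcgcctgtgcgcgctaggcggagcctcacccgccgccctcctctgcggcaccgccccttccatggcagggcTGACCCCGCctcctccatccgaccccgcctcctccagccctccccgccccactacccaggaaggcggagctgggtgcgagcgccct
The antioxidant core occurred in 21 of 35 member promoters (60.0%) and in 35.4% of all 27305 promoters of the same length. CCAAT occurred in 15 of 35 member promoters (42.9%, against 33.0% of all) and the interferon element in 4 of 35 (11.4%, against 3.1% of all). CCAAT was found in 6 of 12 core, 8 of 18 regulatory and 1 of 5 immune promoters, and the antioxidant core in 8, 9 and 4 of them. The interferon element was found in 2 of 12 core promoters (PSMA4 and PSMB4), 0 of 18 regulatory promoters and 2 of 5 immune promoters (PSMB10 and PSME2). A match is a description of these letters and not a bound site.

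At 2 h no proteasome gene was called with any agent. To ask what each agent did, its groups were averaged over the levels of the other factor, giving 9 arrays with and 9 without the agent at each time. The comparisons of a time share arrays. Radiation and cisplatin were both set against the untreated, nicotine and smoke extract groups. Smoke extract and nicotine were both set against the untreated, radiation and cisplatin groups. A gene was called where limma's two-sided test gave a Benjamini-Hochberg adjusted p under 0.05 over all 18417 genes. At 2 h, limma called 0 of 40 members for radiation (1.35% of all genes called, 0.559% higher and 0.793% lower) and 0 for smoke extract (9.28%, 4.22% higher and 5.06% lower). It called 0 for cisplatin (0.0109% of all genes) and 0 for nicotine (0%). At an unadjusted p under 0.05 the members' counts were 3 for radiation, 1 for smoke extract, 0 for cisplatin and 1 for nicotine. The limma F test over all 9 treatments at 2 h also called 0 members (7.23% of all genes), with 0 at an unadjusted p under 0.05.

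Changes at 2 h over the members ran from -0.06 to 0.13 on the log2 scale for radiation, from -0.06 to 0.11 for cisplatin, from -0.06 to 0.15 for smoke extract and from -0.06 to 0.14 for nicotine. PSMC1, an ATPase of the base of the regulatory particle, had 9.79 to 10.04 (median 9.84) in irradiated cultures against 9.59 to 9.91 (median 9.75) in cultures without radiation. The groups overlapped, and its change of 0.13 ± 0.04 (SE, adjusted p = 0.224) was called only with the background covariate (adjusted p = 0.0283). For radiation the smallest p belonged to PSMC1 (0.13 ± 0.04, adjusted p = 0.224), PSMD3 (0.10 ± 0.04, adjusted p = 0.4) and PSMD14 (0.09 ± 0.04, adjusted p = 0.457), all by limma with SE. For smoke extract they belonged to PSMB6 (0.12 ± 0.06, adjusted p = 0.277), PSMA6 (0.11 ± 0.07, adjusted p = 0.403) and PSMB11 (0.15 ± 0.09, adjusted p = 0.415). For cisplatin they belonged to PSMD9 (0.08 ± 0.05, adjusted p = 1.00), PSMD3 (0.05 ± 0.04, adjusted p = 1.00) and PSMB11 (0.11 ± 0.09, adjusted p = 1.00), and for nicotine to PSMC2 (0.14 ± 0.06, adjusted p = 1.00), PSMD6 (0.13 ± 0.06, adjusted p = 1.00) and PSMB6 (0.11 ± 0.06, adjusted p = 1.00). Within each level of the other factor at 2 h limma called 0 members in any of 12 comparisons, with 0 to 4 at an unadjusted p under 0.05, and 0 in any of 4 comparisons of combined treatments with untreated cells, with 1 to 2. All genes called there ran from 0% to 5.46%, with 0.304% for radiation alone, 2.66% for smoke extract in irradiated cells and 0.266% for radiation + nicotine against untreated cells.

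**Figure D1:**
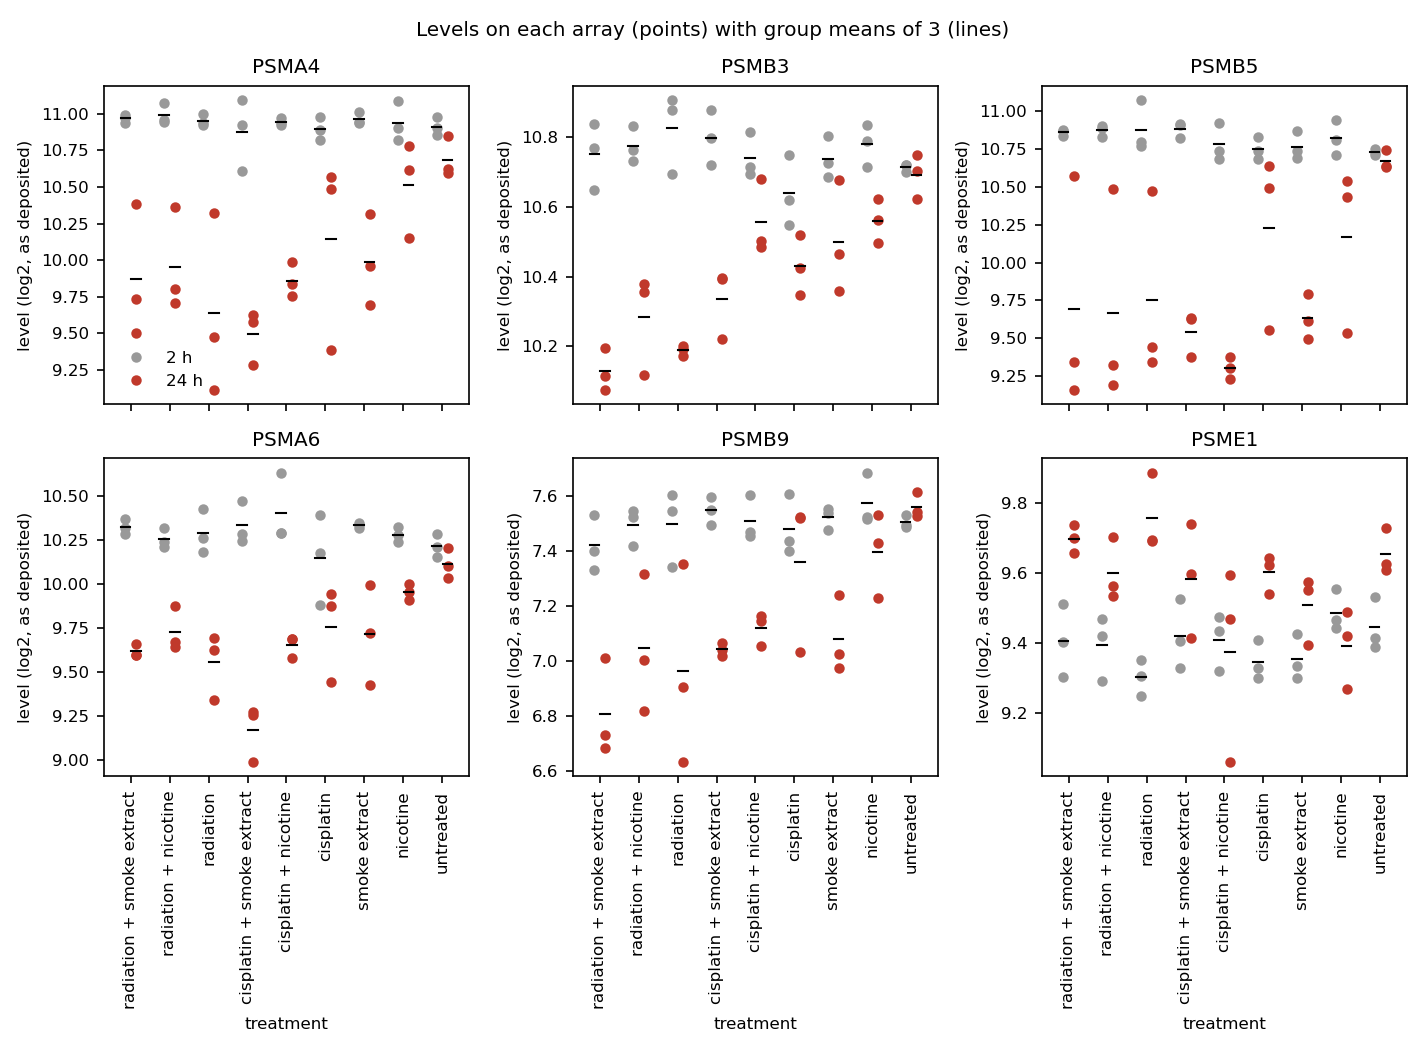
Deposited log2 level (y axis) of PSMA4, PSMB3, PSMB5, PSMA6, PSMB9 and PSME1 on every array, by treatment (x axis), with 2 h in grey, 24 h in red and a line at each mean of 3. PSMB5 at 24 h lies either at 10.43 and above or at 9.79 and below.

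A set of arrays stood apart at 24 h in PSMB5, a pattern noticed after the values were seen. For PSMB5, of the 27 arrays, 10 lay at 10.43 or above and 17 at 9.79 or below, a gap of 0.64 that was the widest of the 40 members. The upper side held 3 of 3 untreated, 2 of 3 nicotine and 2 of 3 cisplatin arrays. It held 1 of 3 radiation, 1 of 3 radiation + nicotine and 1 of 3 radiation + smoke extract arrays, and 0 of 3 with smoke extract, 0 of 3 with cisplatin + nicotine and 0 of 3 with cisplatin + smoke extract. PSMB5 was 9.44, 9.34 and 10.47 with radiation alone, against 10.63, 10.64 and 10.75 in untreated cells. PSMA4 was 9.48, 9.12 and 10.32 with radiation alone, against 10.85, 10.62 and 10.59 in untreated cells. The radiation array that was high for PSMB5 was also the highest of its group for PSMA4.

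The ranges of the same 10 arrays and of the others also did not overlap in PSMA4 and PSMB1, but there they nearly touched. In every other member the ranges overlapped. The share of all genes with such a split was not taken, so no excess among the members can be read from it. On the 10 arrays PSMA4 was 10.32 to 10.85 and on the others 9.12 to 10.32, apart by a margin lost on rounding. PSMB1 was 8.89 to 9.24 on the 10 and 8.13 to 8.88 on the others. The widest gaps of PSMA4 and PSMB1 lay elsewhere, at 9.12 to 9.29 and at 8.71 to 8.86. PSME3 was 10.58 to 10.84 on the 10 arrays and 10.13 to 10.63 on the others, and PSMB4 ran the other way, at 10.14 to 10.47 on the 10 and 10.42 to 10.82 on the others, both with some overlap. The background mean was 4.70 to 5.08 on the 10 arrays and 4.81 to 5.15 on the others, and its part in this spread was not tested. The 10 arrays made up 3 of 9 with radiation against 5 of 9 without it, 2 of 9 with cisplatin against 5 of 9 without it, 1 of 9 with smoke extract against 6 of 9 without it, and 3 of 9 with nicotine against 6 of 9 without it. Since the set was seen in the values themselves, nothing was averaged or tested over it, and its part in the 24 h changes of these members was not tested.

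At 24 h radiation lowered the RNA of most proteasome genes. Of the 40 members 27 fell and 1 rose, where 32.5% of all genes were called, 16.6% lower and 15.9% higher. The median change was -0.27 over the core genes, -0.20 over the regulatory genes and -0.13 over the immune genes, against 0.03 over all genes. High genes fell more often: among the 4604 genes of highest mean level 34.4% were lower, and of the 32 members among them 26 were. With the background covariate 26 members fell and 1 rose.

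**Figure D2:**
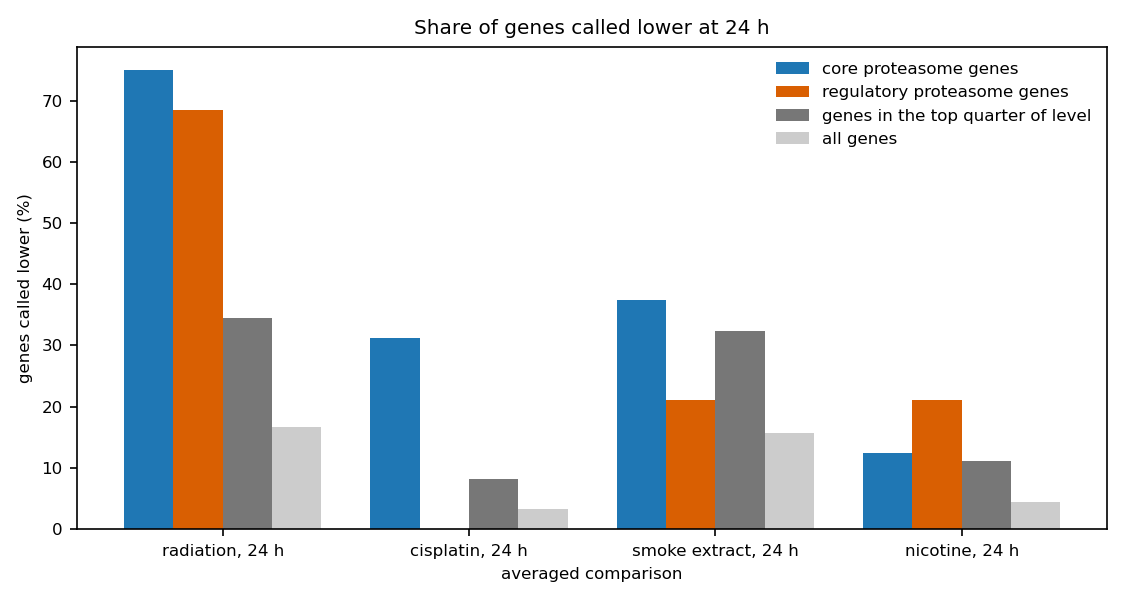
Percent of genes called lower (y axis) with each agent at 24 h (x axis), for core genes, regulatory genes, the 4604 genes of highest mean level and all genes. Radiation has the tallest proteasome bars, with 12 of 16 core and 13 of 19 regulatory genes lower, and cisplatin has 5 of 16 core and 0 of 19 regulatory genes.

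Among the core genes 12 of 16 fell and 0 rose. PSMA4, an alpha ring subunit, had 9.12 to 10.38 (median 9.74) in irradiated cultures against 9.69 to 10.85 (median 10.59) in cultures without radiation. The groups overlapped, and the change was -0.58 ± 0.12 (SE, fold 0.671, adjusted p = 0.00022) by limma. PSMB3, a beta ring subunit without a cutting site, had 10.08 to 10.38 (median 10.19) in irradiated cultures against 10.36 to 10.75 (median 10.62) in cultures without radiation. The overlap was a narrow strip, and the change was -0.38 ± 0.04 (SE, fold 0.767, adjusted p = 3.84e-10). PSMA5, another alpha ring subunit, changed by -0.39 ± 0.07 (SE, adjusted p = 1.06e-05) and the beta ring subunit PSMB1 by -0.37 ± 0.09 (SE, adjusted p = 0.000515). PSMB2, a further beta ring subunit, had 9.95 to 10.23 (median 10.05) in irradiated cultures against 10.24 to 10.67 (median 10.31) without radiation, so the groups did not overlap, and its change was -0.32 ± 0.04 (SE, adjusted p = 8.41e-09).

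The subunits with the constitutive cutting sites all fell after radiation. PSMB6, which cuts after acidic residues, had 10.55 to 10.85 (median 10.76) in irradiated cultures against 10.83 to 11.31 (median 11.12) without radiation. The groups met only at their edges, and the change was -0.37 ± 0.06 (SE, adjusted p = 2.57e-06). PSMB7, which cuts after basic residues, changed by -0.25 ± 0.07 (SE, adjusted p = 0.00379). PSMB5, the chymotrypsin-like subunit and the main target of bortezomib, had 9.16 to 10.57 (median 9.35) in irradiated cultures against 9.49 to 10.75 (median 10.43) without radiation, with wide overlap and a change of -0.45 ± 0.15 (SE, adjusted p = 0.0165). PSMB5 was not called without nicotine replicate 1, radiation replicate 2, radiation + nicotine replicate 2 or radiation + smoke extract replicate 2 (adjusted p up to 0.0617).

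Among the 19 regulatory genes, which include the separate activators PSME3 and PSME4 and the chaperone PSMD5, 13 fell and 0 rose. PSMD3, a subunit of the lid, had 9.64 to 9.90 (median 9.77) in irradiated cultures against 9.98 to 10.24 (median 10.13) without radiation. The sets of 9 arrays did not overlap, and the change was -0.37 ± 0.04 (SE, adjusted p = 2.26e-10). PSMC3, an ATPase of the base, had 8.19 to 8.63 (median 8.31) in irradiated cultures against 8.47 to 8.90 (median 8.68) without radiation, with some overlap. Its change was -0.35 ± 0.05 (SE, adjusted p = 7.29e-08).

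The immune genes split, 2 falling and 1 rising. PSMB9, the interferon-inducible counterpart of PSMB6, had 6.64 to 7.35 (median 6.91) in irradiated cultures against 6.98 to 7.61 (median 7.43) without radiation, overlapping, and changed by -0.40 ± 0.07 (SE, adjusted p = 6.81e-06). PSME2, a subunit of the activator cap, changed by -0.32 ± 0.07 (SE, adjusted p = 0.000162). Its partner PSME1 had 9.54 to 9.89 (median 9.69) in irradiated cultures against 9.27 to 9.73 (median 9.55) without radiation. These groups overlapped, and PSME1 was the one member that rose, by 0.17 ± 0.05 (adjusted p = 0.00857). PSMB8 (-0.13 ± 0.07, adjusted p = 0.151), the counterpart of PSMB5, and PSMB10 (-0.07 ± 0.05, adjusted p = 0.36), that of PSMB7, were not called. PSMB8 and PSMB9 each have 3 array rows with identical values.

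**Figure D3:**
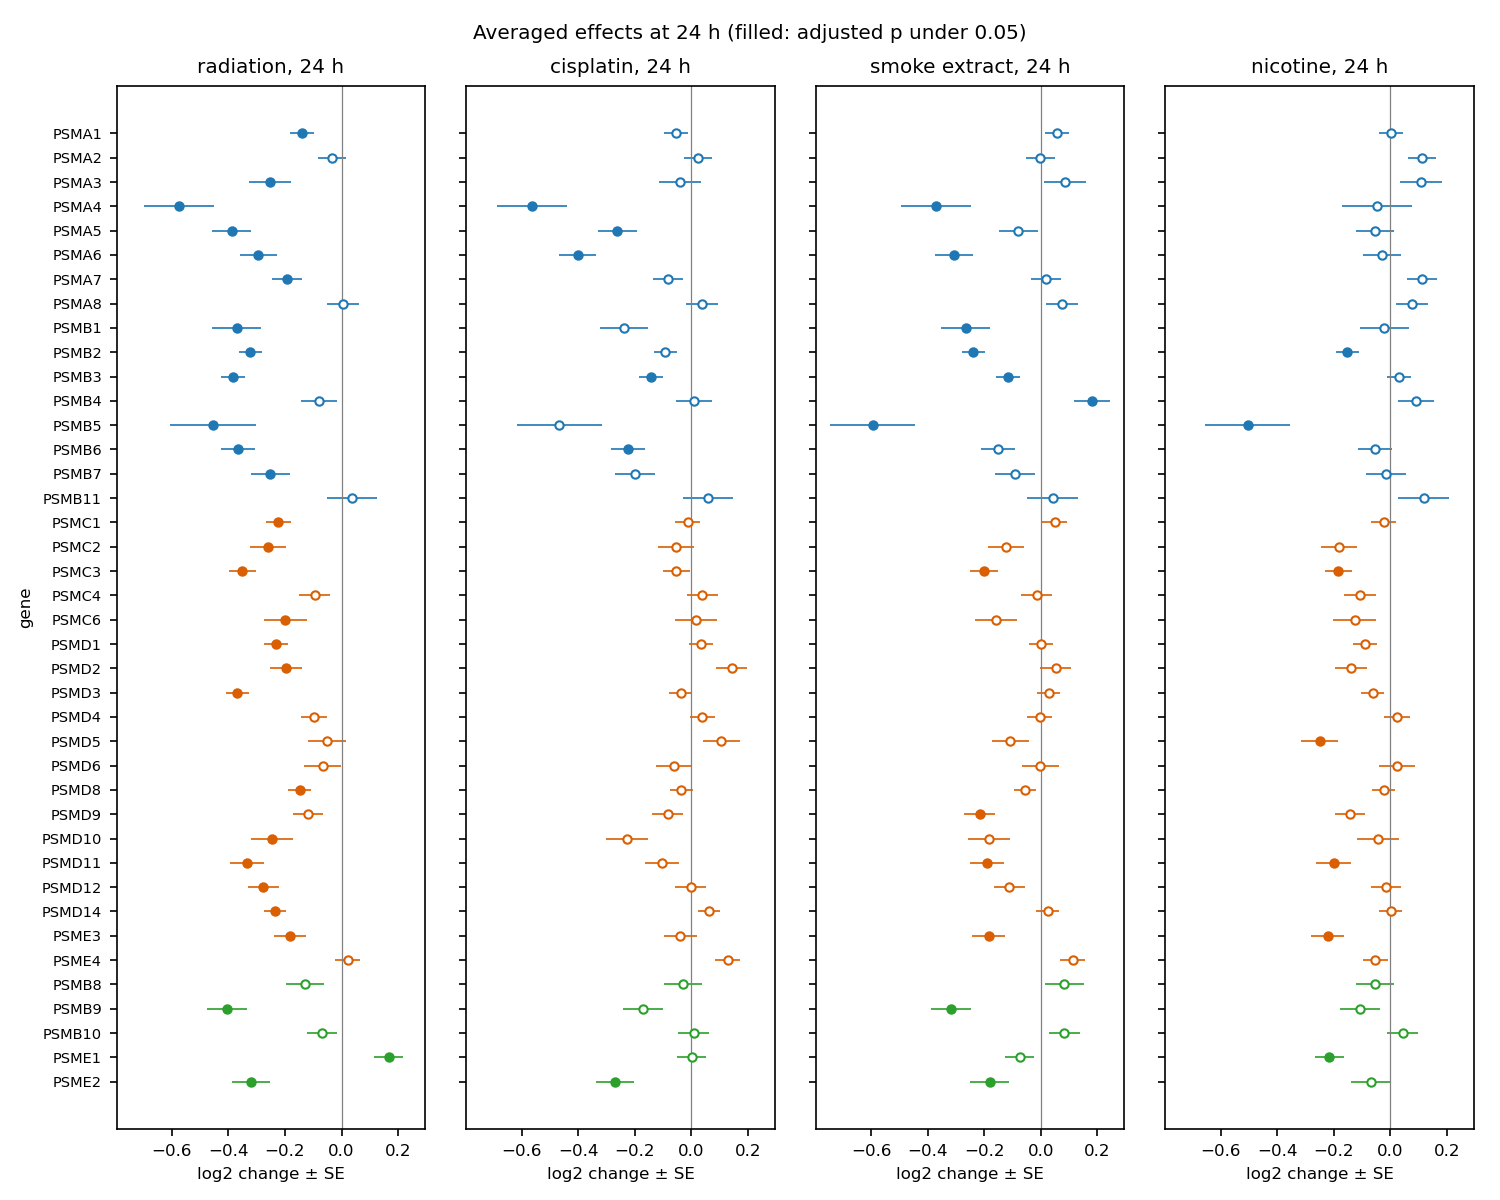
Change of each member (y axis) with each agent at 24 h (x axes, log2, points with SE bars), filled where the adjusted p was under 0.05. Filled points lie left of 0 for 27 members under radiation, with PSME1 alone filled to the right, and no regulatory gene is filled under cisplatin.

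Cisplatin at 24 h lowered fewer members. Of 40 members 6 fell and 0 rose (5.03% of all genes called, 1.81% higher and 3.22% lower), 5 of them core and 1 immune. Of the 4604 genes of highest level 8.23% were lower, and 6 of the 32 members there. PSMA6, an alpha ring subunit, had 8.99 to 9.94 (median 9.58) in cisplatin-treated cultures against 9.42 to 10.20 (median 9.99) without cisplatin. The ranges overlapped and the change was -0.40 ± 0.07 (SE, adjusted p = 8.05e-05). PSMA4 had 9.29 to 10.57 (median 9.75) with cisplatin against 9.69 to 10.85 (median 10.59) without it, also overlapping, and changed by -0.56 ± 0.12 (SE, adjusted p = 0.00373). Limma called 0 of the 19 regulatory genes, 3 having an unadjusted p under 0.05, and their median change was -0.01.

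The other called members were PSME2 (-0.27 ± 0.07, adjusted p = 0.011), PSMA5 (-0.26 ± 0.07, adjusted p = 0.0167), PSMB6 (-0.22 ± 0.06, adjusted p = 0.0188) and PSMB3 (-0.14 ± 0.04, adjusted p = 0.0377). PSME2 was not called without cisplatin replicate 2 (adjusted p = 0.0591), and PSMA5 without that array, nicotine replicate 1 or smoke extract replicate 2 (up to 0.0772). PSMB6 was not called without nicotine replicate 1, smoke extract replicate 2, cisplatin + nicotine replicate 1 or cisplatin + smoke extract replicate 3 (up to 0.0798). PSMB3 was not called without untreated replicate 1 or 2, nicotine replicate 1, smoke extract replicate 2, cisplatin replicate 1 or 2, cisplatin + nicotine replicate 1 or 3, or cisplatin + smoke extract replicate 3 (up to 0.136). The count was 3 without nicotine replicate 1, smoke extract replicate 2 or cisplatin replicate 2, and 10 without nicotine replicate 3 or cisplatin replicate 3. PSMB5 (-0.47 ± 0.15, adjusted p = 0.0603), PSMB7 (-0.20 ± 0.07, adjusted p = 0.0915) and PSMB9 (-0.17 ± 0.07, adjusted p = 0.158) were not called, and PSMB8 (-0.03), PSMB10 (0.01) and PSME1 (0.00) were near 0. With the background covariate 5 members fell and 1 rose.

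Smoke extract at 24 h lowered 12 members and raised 1, where 27.7% of all genes were called, 11.9% higher and 15.7% lower. Among the 4604 genes of highest level 32.3% were lower, and 10 of the 32 members there, a share near that background. PSMB2 had 9.95 to 10.24 (median 10.19) with smoke extract against 10.05 to 10.67 (median 10.47) without it, overlapping, and changed by -0.24 ± 0.04 (SE, adjusted p = 8.31e-06). PSMB5 had 9.16 to 10.57 (median 9.61) with smoke extract against 9.34 to 10.75 (median 10.49) without it. Its ranges overlapped widely, and its change of -0.59 ± 0.15 (SE, adjusted p = 0.00224) was the largest among the 40 members. Of these arrays, 1 of 9 with smoke extract lay on the upper side of its gap, against 6 of 9 without it. On the lower side PSMB5 was 9.16 to 9.79 on 8 arrays with smoke extract against 9.34 to 9.56 on 3 without it. The sides were set by PSMB5 itself, so these ranges are limited by that choice and do not bear on its change. PSMB9 changed by -0.32 ± 0.07 (SE, adjusted p = 0.000438) and PSMA6 by -0.31 ± 0.07 (SE, adjusted p = 0.000315). PSMA4 (-0.37 ± 0.12, adjusted p = 0.0211) and PSMB1 (-0.27 ± 0.09, adjusted p = 0.0165) were not called with the background covariate.

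The one rise with smoke extract was PSMB4, a beta ring subunit without a cutting site, with 10.29 to 10.82 (median 10.65) with smoke extract against 10.14 to 10.61 (median 10.46) without it. The ranges overlapped and it rose by 0.18 ± 0.06 (adjusted p = 0.0271). PSMB4 was 10.14 to 10.47 on the arrays where PSMB5 was high and 10.42 to 10.82 on the others, with some overlap. The arrays were set apart by PSMB5 after the values were seen, and their part in the rise of PSMB4 was not tested. PSME2 changed by -0.18 ± 0.07 (SE, adjusted p = 0.0399), while PSMB6 (-0.15), PSMB7 (-0.09), PSMB8 (0.08), PSMB10 (0.08) and PSME1 (-0.08) were not called. PSMA4 was not called without smoke extract replicate 3, radiation replicate 3, radiation + smoke extract replicate 2 or cisplatin replicate 1 or 3 (adjusted p up to 0.105), and PSMB1 without those arrays other than cisplatin replicate 1 (up to 0.0871). PSMB4 was not called without smoke extract replicate 2, radiation replicate 3, radiation + smoke extract replicate 1 or 2, cisplatin replicate 1 or 3, or cisplatin + smoke extract replicate 1 (up to 0.119). PSME2 was not called without any 1 of 11 arrays, all of the comparison but untreated replicate 2, smoke extract replicate 2, radiation replicate 1 and 2, radiation + smoke extract replicate 3, cisplatin replicate 2 and cisplatin + smoke extract replicate 1. The count of called members was 6 without radiation replicate 3 and 7 without radiation + smoke extract replicate 2. With the background covariate 6 members fell and 3 rose.

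Nicotine at 24 h lowered 7 members and raised 0 (5.21% of all genes called, 0.782% higher and 4.43% lower). Among the 4604 genes of highest level 11.2% were lower, and 7 of the 32 members there. PSME1 had 9.06 to 9.70 (median 9.49) with nicotine against 9.54 to 9.89 (median 9.64) without it, overlapping, and changed by -0.22 ± 0.05 (SE, adjusted p = 0.00974). PSMD5, an assembly chaperone of the base, changed by -0.25 ± 0.07 (SE, adjusted p = 0.0199) and PSME3, a nuclear activator, by -0.22 ± 0.06 (SE, adjusted p = 0.0201). PSMB5 changed by -0.50 ± 0.15 (SE, adjusted p = 0.0404), the lid subunit PSMD11 by -0.20 ± 0.06 (SE, adjusted p = 0.0419) and PSMC3 by -0.18 ± 0.05 (SE, adjusted p = 0.0199). PSMB6 (-0.05), PSMB7 (-0.02), PSMB8 (-0.05), PSMB9 (-0.11), PSMB10 (0.04) and PSME2 (-0.07) were not called.

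With the background covariate limma called 1 member for nicotine, PSME1. PSME1 was called on leaving out any 1 array, but not with only its own groups fitted (adjusted p = 0.11, where limma called 0 members) nor without the arrays whose background mean lay over 0.1 from their group's median (adjusted p = 0.0682). PSMD5 was not called without nicotine replicate 2, radiation replicate 3 or radiation + nicotine replicate 2 or 3 (adjusted p up to 0.079). PSMC3 was not called without untreated replicate 1, radiation replicate 3, radiation + nicotine replicate 2 or cisplatin replicate 3 (up to 0.0714). PSME3 was not called without radiation replicate 3, radiation + nicotine replicate 2 or 3, cisplatin replicate 3 or cisplatin + nicotine replicate 1 (up to 0.0767). PSMB5 was not called without any 1 of 13 arrays, all of the comparison but nicotine replicate 1, radiation replicate 1 and 2, radiation + nicotine replicate 1 and cisplatin replicate 2, and PSMD11 without any 1 of 12, all but nicotine replicate 1, radiation replicate 1 and 2, radiation + nicotine replicate 1, cisplatin replicate 2 and cisplatin + nicotine replicate 3. The count was 1 without radiation replicate 3 or radiation + nicotine replicate 2, 2 without cisplatin replicate 3, and 3 without nicotine replicate 2 or radiation + nicotine replicate 3. It was 4 without untreated replicate 1, untreated replicate 3 or cisplatin + nicotine replicate 1.

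The F test over the 9 treatments at 24 h called 29 members (47.6% of all genes). The smallest p belonged to PSMB2 (adjusted p = 1.01e-08), PSMD3 (adjusted p = 1.15e-08), PSMB3 (adjusted p = 3.15e-08), PSMA6 (adjusted p = 4.03e-07) and PSMC3 (adjusted p = 4.37e-07). PSMD3 and PSMC3 belong to the regulatory particle and the others to the core.

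Within 1 level of the other factor, 3 arrays stood against 3. Radiation lowered 19 members in cells without pretreatment (21% of all genes called), 13 with nicotine (15.3%) and 10 with smoke extract (14.2%), and raised 0 in each. Smoke extract lowered 10 and raised 2 in cells without therapy (16.1%), and lowered 10 and raised 1 in cisplatin-treated cells (28.6%). In irradiated cells limma called 0 members for smoke extract (8.23%), 2 having an unadjusted p under 0.05. Cisplatin lowered 3 and raised 1 without pretreatment (3.8%), and lowered 1 with smoke extract (0.0814%). With nicotine limma called 0 for cisplatin (0.451%, 9 at an unadjusted p under 0.05). For nicotine limma called 0 without therapy and 0 with radiation (0.00543% of all genes in each, 4 and 4 members at an unadjusted p under 0.05), and 5 were lower with cisplatin (17.8%).

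Whether such effects differed was asked by F tests of the interaction. The effect of smoke extract differed with therapy for 1 of 40 members, PSMA6 (F = 8.50, limma adjusted p = 0.0422). Of all genes 2.17% were called, so the share of members lay near that of all genes. In cells without therapy PSMA6 was 9.72, 9.99 and 9.42 with smoke extract against 10.20, 10.03 and 10.10 untreated. In cisplatin-treated cells it was 9.25, 9.27 and 8.99 with smoke extract against 9.88, 9.44 and 9.94 with cisplatin alone. In irradiated cells it was 9.59, 9.66 and 9.59 with smoke extract against 9.63, 9.34 and 9.69 with radiation alone. The groups overlapped only in irradiated cells, and the changes of PSMA6 with smoke extract were -0.40 ± 0.11 without therapy, -0.58 ± 0.11 with cisplatin and 0.06 ± 0.11 with radiation (SE).

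The count of 1 rested on single arrays. It was 8 without radiation replicate 3, 4 without cisplatin replicate 2 and 3 without radiation + smoke extract replicate 2. It was 0 without any 1 untreated array, smoke extract replicate 1, radiation replicate 1 or 2, radiation + smoke extract replicate 1 or 3, cisplatin replicate 1 or 3, or cisplatin + smoke extract replicate 3. The smallest p of this test belonged to PSMA6 (adjusted p = 0.0422), PSMD2 (adjusted p = 0.0775), PSMA4 (adjusted p = 0.0934), PSMB6 (adjusted p = 0.114) and PSME2 (adjusted p = 0.136). The effect of radiation differed with pretreatment for 0 members by limma (1.71% of all genes called, 11 members at an unadjusted p under 0.05). There the smallest p belonged to PSMD2 (adjusted p = 0.0752), PSME2 (adjusted p = 0.11), PSMB6 (adjusted p = 0.169), PSMA4 (adjusted p = 0.205) and PSMA5 (adjusted p = 0.217). That count was 5 without radiation replicate 3 and 1 without nicotine replicate 2 or 3, smoke extract replicate 2, radiation + nicotine replicate 1 or 3, or radiation + smoke extract replicate 2.

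Combined treatments were also set against untreated cells of 24 h, which these comparisons share. Radiation + smoke extract lowered 18 members (26.9% of all genes called), radiation + nicotine 19 (19.9%), cisplatin + smoke extract 15 with 1 raised (22.3%) and cisplatin + nicotine 15 (10.3%). PSMB5 changed by -0.98 ± 0.26 with radiation + smoke extract, by -1.01 ± 0.26 with radiation + nicotine, by -1.13 ± 0.26 with cisplatin + smoke extract and by -1.37 ± 0.26 with cisplatin + nicotine (SE). The member raised by cisplatin + smoke extract was PSME4 (0.28 ± 0.08), named after its values were seen.

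**Figure D4:**
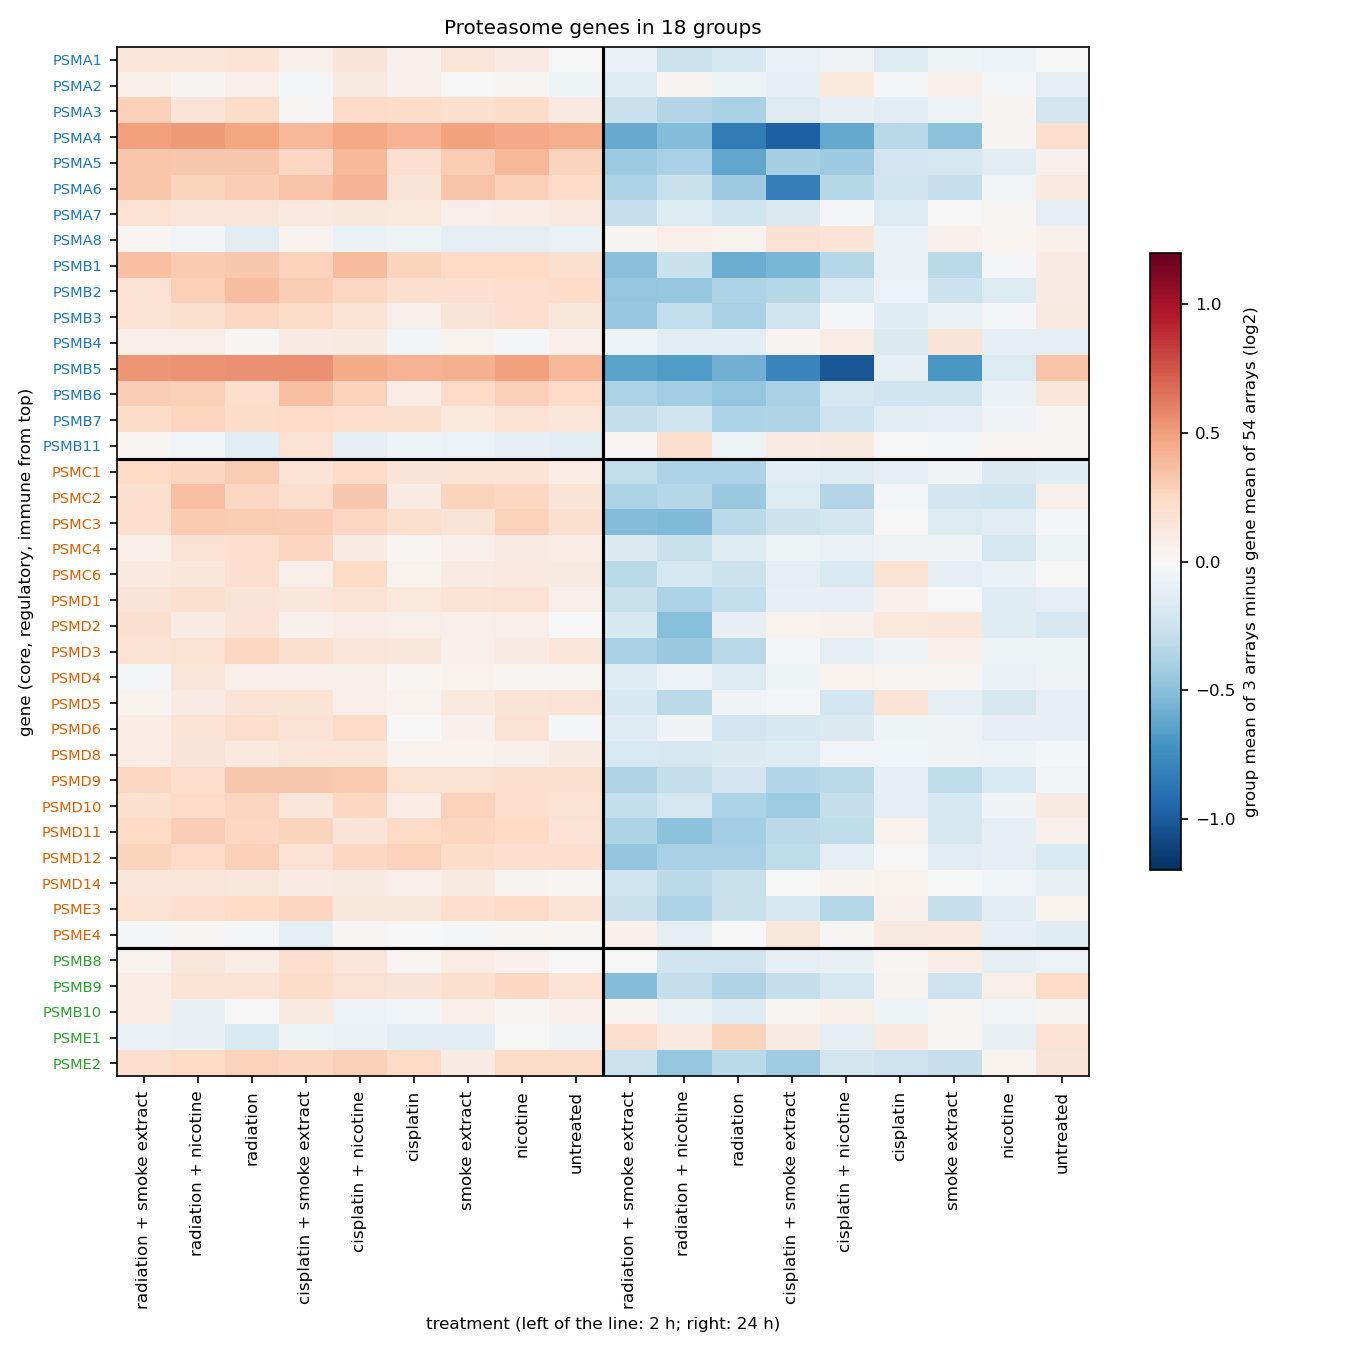
Mean of 3 arrays for each member (y axis) in each of 18 groups (x axis), as the log2 difference from that gene's mean over 54 arrays, red above and blue below. Most rows are redder at 2 h than at 24 h, where 34 members were lower at 24 h, and PSMA4 and PSMB5 span the widest colours.

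At 24 h compared with 2 h, averaged over the 9 treatments, 34 members fell and 2 rose, where 69.2% of all genes were called, 41.4% higher and 27.8% lower. Among the 4604 genes of highest level 52% were lower, and 29 of the 32 members there. PSMB5 had 9.16 to 10.75 (median 9.61) at 24 h against 10.68 to 11.07 (median 10.82) at 2 h. Its change was -0.97 ± 0.09 (SE, fold 0.512, adjusted p = 2.31e-13) by limma, and the times overlapped. PSMA4 had 9.12 to 10.85 (median 9.96) at 24 h against 10.61 to 11.09 (median 10.94) at 2 h, also overlapping, with a change of -0.92 ± 0.07 (SE, fold 0.529, adjusted p = 2.32e-15). PSMA5 (-0.62), PSMA6 (-0.59), PSMB1 (-0.58) and PSMB6 (-0.50) followed, all called.

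PSME1 rose with time by 0.18 ± 0.03 (adjusted p = 8.68e-07). The low-level PSMA8 rose by 0.12 ± 0.03 (adjusted p = 0.00134), a call lost with the background covariate and after quantile normalization. In untreated cells alone limma called 1 member between the times (1.92% of all genes called), the lid subunit PSMD12 at -0.38 ± 0.09 (adjusted p = 0.021), with 12 members at an unadjusted p under 0.05.

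The radiation effect differed between the times for 24 members, 23 being lower at 24 h than at 2 h and 1 higher (23.4% of all genes called, 12.3% lower and 11% higher). Of the 4604 genes of highest level 27.9% were lower, and 22 of the 32 members there. PSMD3 (-0.47 ± 0.06, adjusted p = 1.01e-08) and PSMB3 (-0.42 ± 0.06, adjusted p = 3.22e-07) were among those lower, and PSME1 (0.23 ± 0.07, adjusted p = 0.0157) was the one higher. The smoke extract effect differed between the times for 6 members, all lower at 24 h (9.12% of all genes called, 5.54% lower and 3.57% higher), among them PSMB5 (-0.65 ± 0.21, adjusted p = 0.0472) and PSMA6 (-0.42 ± 0.09, adjusted p = 0.00173). Of the 4604 genes of highest level 13.3% were lower, and 4 of the 32 members there, a share near that background. The count of 6 was 2 without radiation replicate 3 of either time or radiation + smoke extract replicate 1 of 2 h. It was 11 without cisplatin replicate 2 of 24 h and 10 without radiation + smoke extract replicate 3 of 24 h. It was 3 without untreated replicate 3, smoke extract replicate 1, cisplatin replicate 2 or cisplatin + smoke extract replicate 1 of 2 h. It was also 3 without smoke extract replicate 3, radiation + smoke extract replicate 1 or 2, cisplatin replicate 3 or cisplatin + smoke extract replicate 3 of 24 h.

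**Figure D5:**
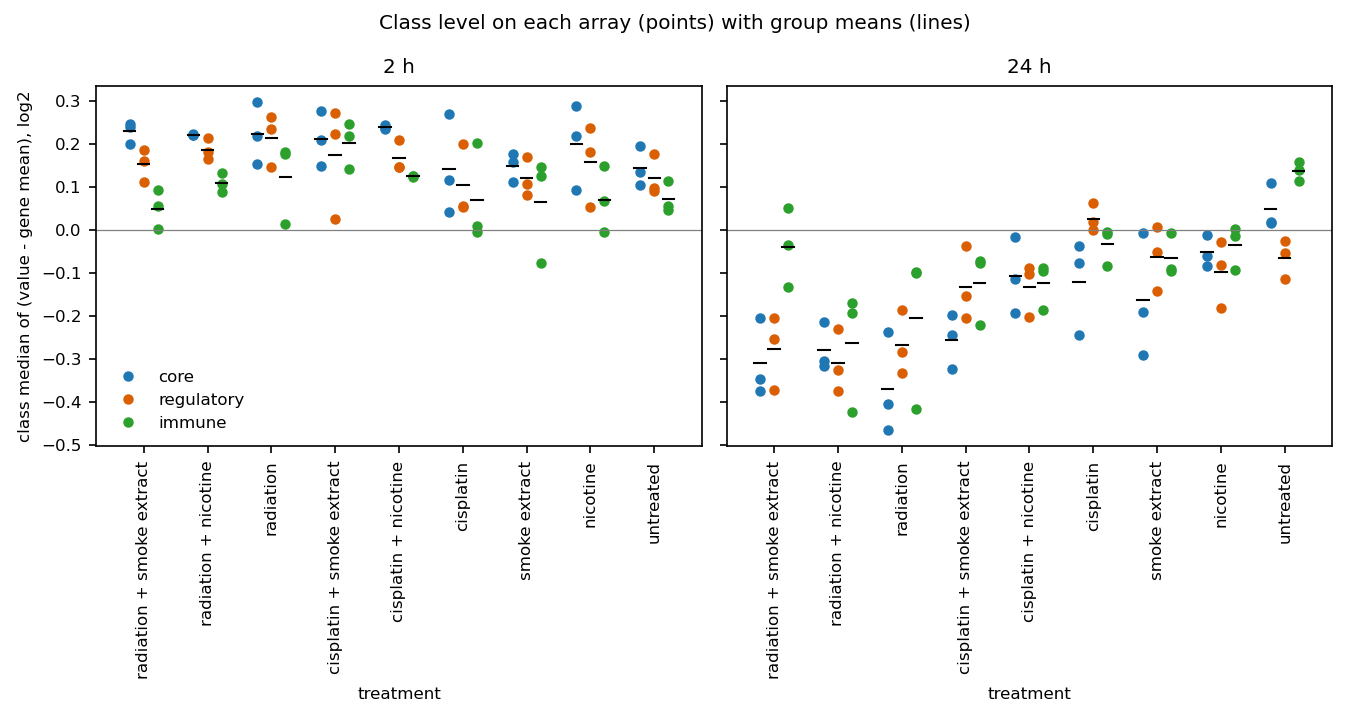
Median over each class of the log2 difference from the gene means (y axis) on each array, by treatment (x axis), at 2 h (left) and 24 h (right), with a line at each group mean. At 24 h the core genes average -0.37 with radiation and 0.05 in untreated cells.

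Set against each gene's mean over all arrays, the core level at 24 h averaged -0.37 ± 0.12 with radiation, -0.12 ± 0.11 with cisplatin and -0.16 ± 0.14 with smoke extract, against 0.05 ± 0.05 in untreated cells (SD, n = 3 each). The regulatory level averaged -0.27 ± 0.07 with radiation, 0.03 ± 0.03 with cisplatin and -0.06 ± 0.08 with smoke extract, against -0.06 ± 0.05 in untreated cells. Core minus regulatory median changes were -0.08 for radiation, -0.10 for cisplatin, -0.03 for smoke extract, 0.08 for nicotine, beside a spread within groups of 0.0567 (SD). Immune minus core median changes were 0.14 for radiation, 0.09 for cisplatin, 0.01 for smoke extract, -0.06 for nicotine, beside a spread of 0.0855 (SD). With PSME1 and PSME2 counted as regulatory, the value for smoke extract was 0.17. These are class medians, with no test. Without radiation replicate 2, core minus regulatory was smaller in size than the 0.0567 between arrays, at -0.03 for radiation and 0.05 for nicotine.

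Other genes of the pathway were counted from lists. Of 17 assembly and accessory genes measured, radiation at 24 h raised 1 and lowered 6 (15.9% and 16.6% of all genes), and cisplatin raised 2 and lowered 1 (1.81% and 3.22%). Most genes of this list had high mean levels. With radiation 34.4% of the 4604 genes of highest level were lower, near the share of this list. Smoke extract raised 3 and lowered 3 (11.9% and 15.7%), and nicotine raised 0 and lowered 0 (0.782% and 4.43%), all by limma over all genes. With radiation, the called genes of largest change were SEM1, a small lid subunit (-0.33 ± 0.10), ZFAND5, a proteasome activator (0.24 ± 0.05), POMP, the maturation factor of the core (-0.24 ± 0.04) and PSMG3, a core assembly chaperone (-0.23 ± 0.04) (log2, SE). With cisplatin, the called genes were USP14, a deubiquitinase (0.19 ± 0.05), ZFAND5 (0.19 ± 0.05) and PSMG3 (-0.16 ± 0.04). With smoke extract, the called genes of largest change were SEM1 (-0.27 ± 0.10), UCHL5, a deubiquitinase (-0.21 ± 0.06), PSMG3 (-0.16 ± 0.04) and TXNL1 (0.16 ± 0.05).

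Of 12 regulator genes measured, radiation at 24 h raised 2 and lowered 2 (15.9% and 16.6% of all genes, near the shares of this list), and cisplatin raised 1 and lowered 0 (1.81% and 3.22%). Smoke extract raised 5 and lowered 1 (11.9% and 15.7%), and nicotine raised 0 and lowered 2 (0.782% and 4.43%), all by limma over all genes. With radiation, the called genes were STAT3, a transcription factor (0.39 ± 0.05), NFYA, an NF-Y subunit (-0.25 ± 0.06), NFYB, an NF-Y subunit (-0.21 ± 0.08) and NFE2L2, which encodes NRF2 (0.20 ± 0.06) (log2, SE). With cisplatin, the called gene was VCP, a segregase that extracts ubiquitinated proteins (0.18 ± 0.04). With smoke extract, the called genes of largest change were MAFG, a partner of NRF2 (0.60 ± 0.06), NFE2L2 (0.24 ± 0.06), KEAP1, the inhibitor of NRF2 (0.21 ± 0.05) and STAT3 (0.19 ± 0.05). With nicotine, the called genes were NFE2L1, which encodes NRF1 (-0.18 ± 0.05) and STAT3 (-0.18 ± 0.05).

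Of 10 ubiquitin and delivery genes measured, radiation at 24 h raised 0 and lowered 4 (15.9% and 16.6% of all genes), and cisplatin raised 0 and lowered 1 (1.81% and 3.22%). These genes too had high mean levels, and with radiation 34.4% of the 4604 genes of highest level were lower, near the share of this list. Smoke extract raised 3 and lowered 2 (11.9% and 15.7%), and nicotine raised 0 and lowered 0 (0.782% and 4.43%), all by limma over all genes. With radiation, the called genes were UBB, a ubiquitin gene (-0.24 ± 0.05), RAD23B, a shuttle for ubiquitinated proteins (-0.15 ± 0.04), UBQLN1, a shuttle for ubiquitinated proteins (-0.13 ± 0.03) and UFD1 (-0.13 ± 0.05) (log2, SE). With cisplatin, the called gene was UBB (-0.22 ± 0.05). With smoke extract, the called genes of largest change were UBB (-0.24 ± 0.05), UBQLN4 (0.22 ± 0.07), UBA1 (0.16 ± 0.04) and UFD1 (-0.15 ± 0.05).

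Of 10 antigen processing genes measured, radiation at 24 h raised 2 and lowered 1 (15.9% and 16.6% of all genes), and cisplatin raised 0 and lowered 2 (1.81% and 3.22%). Smoke extract raised 1 and lowered 1 (11.9% and 15.7%), and nicotine raised 0 and lowered 0 (0.782% and 4.43%), all by limma over all genes. The counts with radiation and with smoke extract lay near the shares of all genes. With radiation, the called genes were TAP2, a peptide transporter subunit (-0.50 ± 0.04), TAP1, a peptide transporter subunit (0.19 ± 0.05) and CALR, an endoplasmic reticulum chaperone (0.17 ± 0.04) (log2, SE). With cisplatin, the called genes were TAPBP (-0.16 ± 0.05) and TAP2 (-0.14 ± 0.04). With smoke extract, the called genes were IRF1, an interferon-responsive transcription factor (0.21 ± 0.06) and TAP2 (-0.18 ± 0.04).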

How the data were processed

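Expression was measured on 54 one-colour whole-transcript arrays. The deposited values were treated as log2, a base inferred from their range (0.89 to 13.81, array medians 6.43 to 6.63). The authors made them with Affymetrix Power Tools 1.15.0, per the submitters' processing notes; summarization, background correction and normalization are not given in the sources used here. No plate is labelled, so none entered as a batch. Of 33297 rows, 19460 had 1 symbol in the platform annotation, 1754 several and 12083 none. One linear model of 18 group means (36 residual degrees of freedom) was fitted with limma 3.58.1 in R 4.3.3, with a trend in eBayes and Benjamini-Hochberg adjustment over all genes; the script was tested on simulated data. Array number limits the precision. For each comparison up to 6 rising and 6 falling called members were named, or the 3 of smallest p where none was called, 5 for F tests, the catalytic and immune members at 24 h, and up to 4 called genes of each pathway list. Outside this rule, PSMB2, PSMD3 and PSMC3 were also described for radiation at 24 h. Their own changes in that comparison were not recomputed under the alternatives. The members and lists were chosen with earlier results of these data known. Alternatives were normalization, background covariate, trend, level filter, row choice, groups in the fit, replicate block and left-out arrays. Leaving out arrays far from their group in background was added after seeing the data, first with a limit of 0.1 and, once those counts had been seen, also with 0.15.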

Additional observations from a re-analysis of the deposited data

Results flagged for a closer look

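The effect of radiation at 24 h differed from that at 2 h, by limma's test of the difference over all genes, for 24 members. The difference (24 h minus 2 h, log2) was -0.21 for PSMA1, -0.30 for PSMA3, -0.61 for PSMA4, -0.39 for PSMA5, -0.31 for PSMA6, -0.25 for PSMA7, -0.48 for PSMB1, -0.39 for PSMB2, -0.42 for PSMB3, -0.39 for PSMB6, -0.34 for PSMB7 among the core genes. Among the others it was -0.34 for PSMB9, -0.35 for PSMC1, -0.31 for PSMC2, -0.42 for PSMC3, -0.26 for PSMD1, -0.30 for PSMD2, -0.47 for PSMD3, -0.20 for PSMD8, -0.37 for PSMD11, -0.33 for PSMD12, -0.33 for PSMD14, -0.38 for PSME2, and 0.23 for PSME1, the only positive one. The effect of smoke extract at 24 h differed from that at 2 h by -0.42 for PSMA6, -0.20 for PSMB2, -0.65 for PSMB5, -0.27 for PSMB6, -0.32 for PSMB9 and -0.24 for PSMD9. These smoke extract calls were lost on leaving out any 1 of 28 arrays for PSMB5, 18 for PSMD9, 10 for PSMB6, 9 for PSMB9 and 1 for PSMB2 (cisplatin replicate 3 of 24 h). The effect of smoke extract at 24 h differed between therapies for PSMA6 (F = 8.50, adjusted p = 0.0422 by limma). This was 1 of 40 members, a share near the 2.17% of all genes called. Groups of 3 arrays were not tested for single outlying arrays.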

How the results depend on the processing

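The number of called proteasome genes was recomputed under each alternative. Among the changes named by the rule none reversed. A change of sign was counted only if the gene was called as reported or under the alternative. A change of sign in a gene called in neither was not counted. Leaving out arrays whose background mean lay far from their group's median was chosen after seeing the data. A limit of 0.1 was run first and left out 15 of 54 arrays, so that in 4 groups 1 array remained, assumed to vary like the other groups. A limit of 0.15, which left out 4, was chosen after the counts at 0.1 had been seen, and both are given. At 0.1 and then 0.15 the 24 h counts were 30 and 31 for radiation (28 with all arrays), 8 and 7 for cisplatin (6), 11 and 18 for smoke extract (13), 1 and 7 for nicotine (7), 5 and 13 for the smoke extract effect over time (6), 5 and 2 for that effect by therapy (1) and 4 and 1 for radiation by pretreatment (0). At 0.1 the core minus regulatory median change with radiation was -0.14. The nicotine count and the smoke extract counts therefore depend on that limit.

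The background covariate gave 1 call for radiation at 2 h, 1 for nicotine at 24 h and 3 for radiation by pretreatment. Fitting just the groups compared, the 24 h counts were 3 for cisplatin, 6 for smoke extract, 0 for nicotine and 0 for smoke extract by therapy. Adjusting over all rows gave 3 for the smoke extract effect over time and 0 by therapy, where no trend also gave 0. Radiation by pretreatment had 2 calls after quantile normalization and 1 among genes above the median. With PSME1 and PSME2 counted as regulatory, immune minus core for smoke extract was 0.17.

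Leaving out single arrays gave, at 24 h, 26 to 29 calls for radiation, 3 to 10 calls for cisplatin, 6 to 16 calls for smoke extract, 1 to 9 calls for nicotine, 24 to 32 for the F test, 0 to 8 for smoke extract by therapy and 0 to 5 for radiation by pretreatment. Over time the count was 36 to 38, for the radiation effect 23 to 28 and for the smoke extract effect 2 to 11, and at 2 h it stayed at 0 in each comparison. Core minus regulatory ranged -0.11 to -0.03 (radiation), -0.13 to -0.09 (cisplatin), -0.06 to 0.01 (smoke extract), 0.05 to 0.12 (nicotine) at 24 h and -0.01 to 0.02 (radiation), -0.02 to 0.02 (cisplatin), 0.01 to 0.04 (smoke extract), 0.00 to 0.02 (nicotine) at 2 h. Immune minus core ranged 0.11 to 0.20 (radiation), 0.05 to 0.11 (cisplatin), -0.04 to 0.05 (smoke extract), -0.11 to -0.03 (nicotine) at 24 h and -0.12 to -0.07 (radiation), -0.07 to -0.03 (cisplatin), -0.02 to 0.01 (smoke extract), -0.03 to 0.01 (nicotine) at 2 h.

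The replicate block left 28 calls for radiation, 6 for cisplatin, 13 for smoke extract and 7 for nicotine at 24 h and 27 for the F test (29 without it), and moved no count by over 1.5 times. The numbers did not pair the arrays: 156 of 459 same-numbered pairs correlated above 0.1 and 23 of 54 arrays correlated best with their own number.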
